A study of Mus musculus with 30 samples.

Results

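CREST phospho-null expression was compared with vehicle after threshold training. The comparison holds 12 of the 30 libraries of the series, 6 from Y397F-T10 mice and 6 from VEH-T10 mice, chosen by their labels alone, and every row of the expression table with a mean of at least 1 FPKM over the 30 libraries was tested, 13184 of 24883 rows. FPKM is fragments per kilobase of transcript, scaled to the number of mapped fragments. All mice were adult male wild-type C57BL/6J. Y397F-T10 mice were infused with plasmid DNA for mouse CREST that carries an HA tag and has phenylalanine in place of tyrosine 397, under the miniCaMK2 promoter and complexed with the transfection reagent in vivo-jetPEI, into dorsal CA1 on both sides at 3 days before training. VEH-T10 mice were given in vivo-jetPEI with no DNA. Both groups then explored 2 objects for 10 min in the object location memory task, and tissue was taken 1 h later, so both groups share surgery, reagent and training and differ in the plasmid as a whole. A plasmid with wild-type CREST or with no insert is not part of this comparison. Endogenous Ss18l1 was intact in every mouse.

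CREST, the product of Ss18l1, is a calcium-responsive transactivator and a subunit of the neuronal BAF complex, which remodels nucleosomes with energy from ATP. It binds CBP, a lysine acetyltransferase that serves CREB and other activity-regulated transcription factors, through its C-terminal end, where tyrosine 397 lies. Phenylalanine lacks the hydroxyl group that a tyrosine kinase modifies, hence the label phospho-null. The study could not detect phosphorylation of this tyrosine, treats the site as putative and calls its altered forms point mutants. In hippocampal neurons, activity switches on immediate-early genes within minutes, among them transcription factors such as Fos and Egr1 and effector genes such as Arc and Homer1. The question asked of these libraries was how the Y397F form alters gene expression during consolidation of a memory that threshold training would normally lay down.

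The codon that the mutation alters is shown in its reference context, because the plasmid differs from the endogenous gene there. Ss18l1 lies at chr2:180042509-180070201 on the plus strand of GRCm38 (mm10), and in the GENCODE transcript Ss18l1-201, which encodes 402 residues, codon 397 lies in exon 11 at chr2:180067338-180067340. The 30 coding bases shown begin in the exon before and cross the splice junction. The capitals mark the tyrosine codon of the reference, and the sequence is from GENCODE.
Ss18l1 coding strand: gaacagggccagTATggaaattaccagcaa

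The libraries of both groups were alike in overall measures. Median FPKM of the tested rows was 9.51 to 10.1 in VEH-T10 and 9.25 to 10.3 in Y397F-T10 mice, and depth relative to the median library, estimated from the steps between low values, was 0.897 to 1.24 and 0.812 to 1.13. Neither differed (exact permutation test, 2-sided, 6 against 6, p = 0.831 and 0.39). The smallest p this design allows is 0.00216. Pearson correlations of log2 values over the tested rows ran from 0.943 to 0.99 between mice of 1 group and from 0.947 to 0.991 between mice of different groups. Several libraries stood apart in cell type markers. Ttr, which choroid plexus makes in large amounts, reached 3674 and 4330 FPKM in VEH-T10 mice 4 and 1 and 6105 and 10070 FPKM in Y397F-T10 mice 4 and 2, and was at most 139.5 FPKM in the other 8. Mouse 1 of each group was lowest of its group for markers of microglia, astrocytes and oligodendrocytes. Values without these libraries are given beside some of the lists they moved, and not beside every one. Markers of CA1 pyramidal neurons were detected in every mouse, with a summed level of 242.9 to 282.3 FPKM in VEH-T10 and 212.4 to 303.7 FPKM in Y397F-T10, and markers of dentate granule cells were also detected, at 78.0 to 174 and 70.1 to 195 FPKM.

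No single gene separated Y397F-T10 from VEH-T10 mice once all genes were considered. With limma on log2(FPKM + 1) and Benjamini-Hochberg adjustment, 0 of 13184 rows (0% of rows) had an adjusted p under 0.05, and the smallest adjusted p was 0.996. At an unadjusted p under 0.05, 256 rows were higher in Y397F-T10 mice (1.94% of tested rows) and 242 were lower (1.84%), together 498 rows (3.78%), where an unadjusted threshold of 0.05 alone gives about 659. With libraries centred on their median FPKM the split was 175 higher and 301 lower. The study did call genes between these groups, at p under 0.05 in its Bayesian test Cyber-T, which it describes as already adjusted. That test was not run here, so its calls are not set against these counts. The 6 Y397F-T10 mice lay above all 6 VEH-T10 mice for 23 rows (0.174%) and below them for 11 (0.0834%), together 34 rows (0.258%). Shuffled group labels alone would separate 6 from 6 mice in a row, in either direction, with a probability of 0.00216. Differences were small. Their median over all rows was -0.0076 on the log2 scale, 90% of rows lay between -0.16 and 0.15, and the median standard error was 0.079. Because no row passed the adjusted threshold, genes are given below with their levels and, after ±, the SE of the limma fit, as a description of how groups of genes were displaced together.

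Genes that were higher in the Y397F-T10 mice were mostly long transcripts, and among them was the acetyltransferase that CREST binds. Crebbp, which encodes CBP and lies at chr16:4081328-4213997 on the minus strand, had a lowest, median and highest level of 5.47, 6.06 and 6.51 FPKM in VEH-T10 mice and 6.53, 7.15 and 7.55 FPKM in Y397F-T10 mice. The groups did not overlap, although the lowest Y397F-T10 mouse, at 6.53 FPKM, lay next to the highest VEH-T10 mouse. The log2 difference was 0.21 ± 0.075 (SE, limma), and it was 0.15 once the trend with transcript length and GC content described below was removed. Ep300, the paralog of Crebbp, overlapped between groups, at 6.75 to 8.81 FPKM in VEH-T10 and 7.12 to 8.77 FPKM in Y397F-T10 mice, a log2 difference of 0.057 ± 0.065.

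Ss18l1 itself overlapped between groups. It was at 10.4, 12.4 and 13.3 FPKM (lowest, median, highest) in VEH-T10 mice and at 11.4, 12.5 and 14.1 FPKM in Y397F-T10 mice, and the ranges overlapped. The difference in means was 0.567 FPKM (exact permutation test, 2-sided, 6 against 6, p = 0.377, adjusted over 6 library measures 0.468), and on the log2 scale 0.064 with an interval (limma) from -0.054 to 0.18. The plasmid carries mouse CREST, so a gene-level FPKM cannot tell fragments of the plasmid transcript from those of the endogenous one, and an increase beyond the upper end of that interval was not detected in this tissue. The study shows staining for the HA tag of this form in dorsal CA1 after infusion, a measure of protein and not of RNA. Ss18, the paralog that occupies the same place in BAF complexes of dividing cells, was at 10.2 to 13.3 FPKM in VEH-T10 and 8.16 to 14.7 FPKM in Y397F-T10 mice. Smarca4, the BRG1 ATPase of the complex, was at 25.6 to 27.8 and 25.9 to 30.5 FPKM.

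The 30 tested BAF subunits had a median log2 difference of 0.023, with 20 above 0 and 10 below, beside 46.1% of all rows above 0. Of these 30, 1 was higher and 1 lower at an unadjusted p below 0.05 (1.94% and 1.84% of all rows). Pbrm1, the polybromo subunit of the PBAF form, was at 5.33 to 6.31 FPKM in VEH-T10 and 6.13 to 7.17 FPKM in Y397F-T10 mice, a log2 difference of 0.14 ± 0.059. Bcl11a, a zinc finger subunit with neuronal roles, was at 38.3 to 48.0 and 37.3 to 41.6 FPKM, a difference of -0.12 ± 0.055. In both genes the ranges overlapped. Bcl11b, its paralog, pointed the other way at 0.21 ± 0.11.

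Some other lists of chromatin regulators were displaced upward by similarly small amounts. Acetyltransferases and CREB coactivators had a median of 0.038 over 28 members, 17 of them above 0, and 2 of 28 were higher at an unadjusted p of 0.05 (1.94% of all rows), Crebbp and Ncoa2. Ncoa2, a p160 coactivator of nuclear receptors, was at 8.94, 9.24 and 10.6 FPKM (lowest, median, highest) in VEH-T10 mice and at 10.5, 10.7 and 10.8 FPKM in Y397F-T10 mice, a log2 difference of 0.16 ± 0.055. One VEH-T10 mouse reached into the Y397F-T10 range. Histone methylases and demethylases had a median of 0.039 with 29 of 39 above 0, and 3 of 39 were higher at an unadjusted p under 0.05 (1.94% of all rows), none lower. They were Kdm5a, a demethylase of H3 lysine 4, at 3.60 to 4.08 FPKM in VEH-T10 and 4.21 to 4.77 FPKM in Y397F-T10 mice with no overlap, its paralog Kdm5b and the H3 lysine 36 methyltransferase Nsd1. Their log2 differences were 0.16, 0.096 and 0.10. With the length and GC trend removed, the median of the methylases and demethylases was 0.013 and that of the acetyltransferases 0.015, and Kdm5a, Kdm5b and Nsd1 were at 0.079, 0.040 and 0.022. These lists hold long transcripts, with median lengths of 6487 and 5267 bases.

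Deacetylases and corepressors had a median of 0.0033 over 35 members. Tbl1xr1, a subunit of the NCoR corepressor complex, was higher, at 8.26, 8.87 and 10.2 FPKM in VEH-T10 and 9.77, 9.93 and 10.7 FPKM in Y397F-T10 mice, a log2 difference of 0.14 ± 0.043, with overlap. Sirt6, a deacetylase of histone H3, was lower by -0.15 ± 0.068. Among 33 Mediator subunits, the complex that links activators to RNA polymerase II, the median was -0.0029 and 4 of 33 were higher at an unadjusted p under 0.05 (1.94% of all rows), among them Med26, Med13 and Med13l at 0.14, 0.15 and 0.13. Splicing factors of the SR and hnRNP families had a median of 0.0071 over 34 members. Hnrnpu and Hnrnpd, RNA-binding proteins of nuclear transcripts, did not overlap between groups, as for 0.174% of all rows: Hnrnpu was at 95.02 to 101.6 FPKM in VEH-T10 and 102 to 109 FPKM in Y397F-T10 mice, a difference of 0.10 ± 0.040, and Hnrnpd at 17.6 to 20.1 and 20.5 to 22.3 FPKM, a difference of 0.12 ± 0.044.

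**Figure D1:**
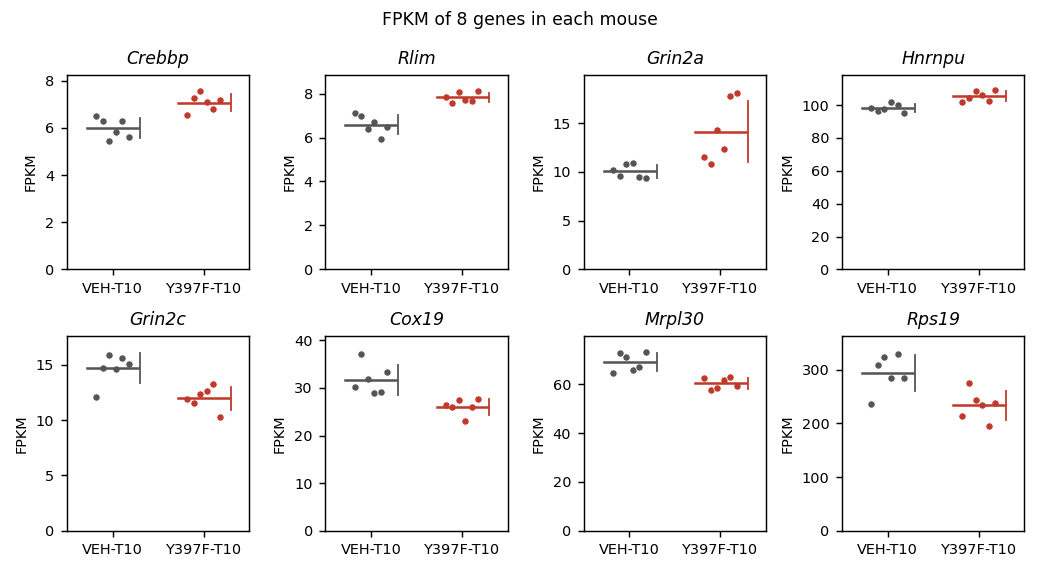
FPKM (vertical axes, each from 0) of 8 genes in every VEH-T10 mouse (grey) and Y397F-T10 mouse (red), with points in order of mouse number, horizontal bars for means and vertical bars for 1 SD. Crebbp, Rlim, Hnrnpu, Cox19 and Mrpl30 do not overlap between groups, Grin2a, Grin2c and Rps19 do, and the differences are small beside the levels.

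The non-overlapping genes with the largest differences included Klhl15, Lnpep, Yod1, Rlim, Zbtb38, Mre11a and Crebbp on the higher side. Klhl15, a substrate adaptor of the CUL3 ubiquitin ligase, was at 1.07 to 1.45 and 1.72 to 2.42 FPKM (0.31 ± 0.093). Yod1, a deubiquitinase, was at 2.00 to 2.40 and 2.45 to 3.52 FPKM (0.28 ± 0.082). Rlim, a RING ubiquitin ligase also named RNF12 at chrX:103957163-103981284, had the smallest p of all rows, with 5.91, 6.58 and 7.11 FPKM in VEH-T10 and 7.58, 7.79 and 8.10 FPKM in Y397F-T10 mice (0.22 ± 0.048). Lnpep, the insulin-regulated aminopeptidase, differed by 0.28, the methyl-DNA-binding factor Zbtb38 by 0.22 and the double-strand break nuclease Mre11a by 0.22.

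On the lower side were Rpp21, Cox19, Fam184b, Arhgap24, Mrpl30, Mogs, Pomp and Abcf1. Rpp21, a protein subunit of ribonuclease P, was at 31.8, 32.6 and 38.0 FPKM in VEH-T10 and 21.3, 27.8 and 30.2 FPKM in Y397F-T10 mice, a log2 difference of -0.34 ± 0.12. Cox19, an assembly factor of cytochrome c oxidase, was at 29.0, 31.0 and 37.2 and at 23.0, 26.2 and 27.6 FPKM (-0.27 ± 0.071). Mrpl30, a protein of the large mitochondrial ribosomal subunit, was at 64.8 to 73.2 and 57.8 to 62.8 FPKM (-0.19 ± 0.059). Pomp, which assists proteasome assembly, was at 130.9 to 145.7 and 121.5 to 128.7 FPKM, Mogs, the glucosidase that begins N-glycan trimming, at 9.64 to 10.7 and 8.47 to 9.54 FPKM, and the translation factor Abcf1 at 28.1 to 30.5 and 24.2 to 27.8 FPKM. Their log2 differences were -0.12, -0.16 and -0.11. Fam184b and the GTPase-activating gene Arhgap24 differed by -0.22 and -0.21.

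Several genes with small p values overlapped by 1 or more mice. Crh, the neuropeptide corticotropin-releasing hormone, was at 0.672, 1.02 and 1.51 FPKM in VEH-T10 and 1.15, 1.74 and 2.14 FPKM in Y397F-T10 mice (0.42 ± 0.095), levels near the lower limit of the tested range. Nucks1 was at 24.3 to 27.3 and 26.8 to 29.4 FPKM (0.14 ± 0.038), Nol4 differed by 0.18, Gtpbp10, a GTPase of mitochondrial ribosome assembly, by 0.34 and Lrrc75a by -0.29.

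Ribosomal and mitochondrial protein genes lay slightly lower in Y397F-T10 mice as whole families. Of 79 cytosolic ribosomal proteins, 77 were below 0 and 2 above, with a median log2 difference of -0.12 and a range from -0.82 to 0.049, beside 53.9% of all tested rows below 0. At an unadjusted p under 0.05, 8 of 79 were lower (1.84% of all rows) and none was higher (1.94%), none separated the groups and none passed the adjusted threshold. Rps19, of the small subunit, was at 236, 296 and 329 FPKM in VEH-T10 and 196, 236 and 276 FPKM in Y397F-T10 mice (-0.33 ± 0.10), and Rps27a, which encodes a ubiquitin fusion, at 235, 288 and 314 and at 221, 234 and 276 FPKM (-0.23 ± 0.090). In both genes all 6 Y397F-T10 mice lay under the VEH-T10 median, with overlap through VEH-T10 mouse 1. The most negative member, Rps27, rested on 1 mouse: VEH-T10 mouse 5 had 34.8 FPKM and the VEH-T10 median was 5.38 FPKM, beside 1.91 to 5.25 FPKM in Y397F-T10. Many ribosomal protein genes have near-identical processed pseudogenes, so the split of fragments among copies, Rps27 in particular, is uncertain.

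Over the whole list, the mean log2 deviation of cytosolic ribosomal proteins was lowest in mouse 1 of each group, at -0.22 and -0.28, and otherwise -0.0029 to 0.26 in VEH-T10 and -0.10 to 0.052 in Y397F-T10 mice. The groups overlapped. VEH-T10 mouse 5, the highest, was also the highest VEH-T10 mouse for microglial markers, at 0.84, and mouse 1 of each group was the lowest for them, at -1.06 and -1.05, and the part of cell composition in the ribosomal result was not tested. The list median was -0.18 without VEH-T10 mouse 1, -0.073 without Y397F-T10 mouse 1, -0.13 without both, -0.060 with quantile normalization, -0.26 without the 4 libraries with high Ttr and -0.068 with the length and GC trend removed, and 69 of 79 members were still below 0 in the last.

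Mitochondrial ribosomal proteins had a median of -0.066, with 65 of 76 below 0 (53.9% of all rows). At an unadjusted p under 0.05, 5 of 76 were lower (1.84% of all rows). Besides Mrpl30, the members with the smallest p were Mrpl44 (15.6 to 18.4 FPKM in VEH-T10 and 13.5 to 16.4 FPKM in Y397F-T10 mice, -0.15 ± 0.058) and Mrpl20 (71.3 to 99.6 and 66.2 to 75.7 FPKM, -0.20 ± 0.081). The list mean was highest in VEH-T10 mouse 3, at 0.17, and the median without that mouse was -0.034. Nuclear genes of the oxidative phosphorylation complexes had a median of -0.057, with 67 of 76 below 0. At an unadjusted p under 0.05, 2 of 76 were lower, near the 1.84% of all rows. These were the complex I subunits Ndufb9 (-0.18 ± 0.077) and Ndufb4 (-0.18 ± 0.077). Proteasome subunits had a median of -0.039 (-0.015 without VEH-T10 mouse 3), with 29 of 35 below 0. At an unadjusted p under 0.05, 1 of 35 was lower, near the 1.84% of all rows. This was the core particle gene Psma6, at 77.5 to 113.1 FPKM in VEH-T10 and 72.5 to 82.6 FPKM in Y397F-T10 mice (-0.15 ± 0.071), while Psmd11 was at 0.10 ± 0.051. With the length and GC trend removed, the medians of these 3 lists were -0.035, -0.011 and -0.014, and 55 of 76, 45 of 76 and 24 of 35 members were below 0. Their median transcript lengths were 1806, 1186 and 1883 bases, and that of the cytosolic ribosomal proteins was 1059 bases.

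**Figure D2:**
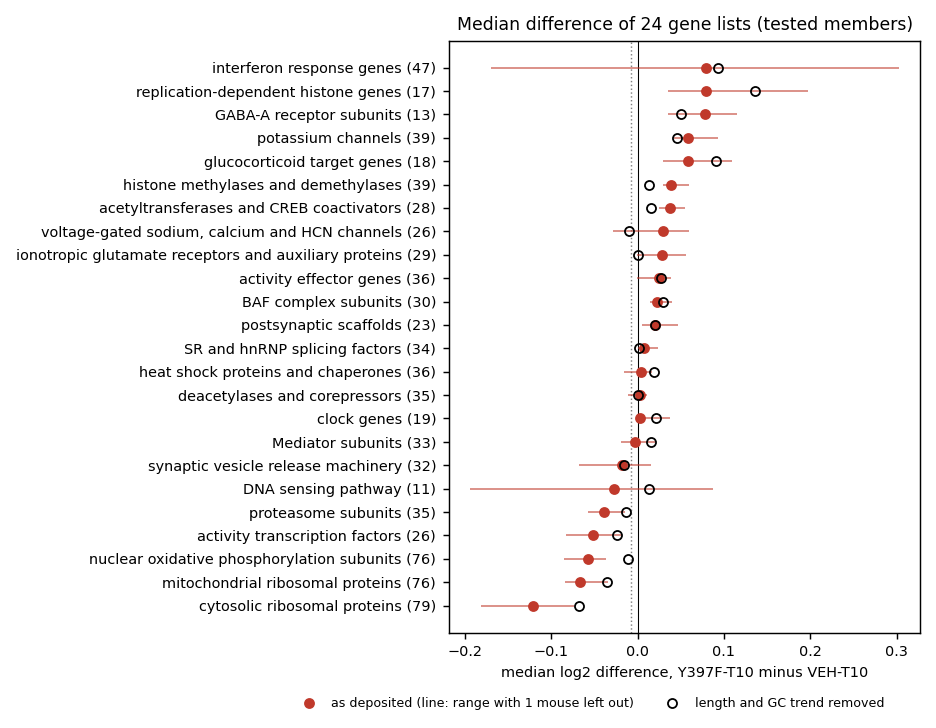
Median log2 difference, Y397F-T10 minus VEH-T10 (horizontal axis), of 24 gene lists with the number of tested members in brackets, as deposited (filled, with the range when each of 12 mice is left out) and with the length and GC trend removed (open). The dotted line is the median of all rows, -0.0076, and cytosolic ribosomal proteins lie lowest at -0.12.

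Leaving out 1 mouse moved several list medians across 0. The lowest was -0.0010 for activity effector genes (without Y397F-T10 mouse 6), -0.012 for deacetylases (VEH-T10 mouse 6), -0.016 for heat shock proteins (VEH-T10 mouse 2) and -0.00040 for glutamate receptors (Y397F-T10 mouse 1). The highest was 0.020 for Mediator subunits (Y397F-T10 mouse 1), 0.015 for vesicle release genes (VEH-T10 mouse 1) and 0.087 for DNA sensing genes (VEH-T10 mouse 5). Medians of the BAF subunits (0.014 to 0.040), acetyltransferases (0.024 to 0.055), methylases and demethylases (0.029 to 0.059), GABA-A subunits (0.035 to 0.12) and potassium channels (0.042 to 0.093) were above 0 without any 1 of the 12 mice, and those of the ribosomal, oxidative phosphorylation and proteasome lists below 0. The median of the immediate-early transcription factors, at -0.083 to -0.018, was likewise below 0.

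The displacement followed transcript length across the whole transcriptome. Tested rows with a length in the annotation, 13094 in number, were split into 10 equal classes, and the median log2 difference went from -0.061 in the shortest class (median length 1030 bases, 27.3% of rows above 0) through -0.017 in the fifth to 0.056 in the longest (8382 bases, 79.3% above 0). The classes between them followed the same order without exception. All 23 rows whose Y397F-T10 mice lay above every VEH-T10 mouse fell in the 2 longest classes, 6 in the ninth and 17 in the tenth, Lnpep, Crebbp and Kdm5a among them, and 10 of the 11 non-overlapping lower rows lay in the first to seventh. At an unadjusted p below 0.05 the longest class held 103 higher rows against 2, and the shortest 3 against 54. Across GC content the values ran the other way, from 0.023 in the class of lowest GC to -0.035 in the class of highest. Spearman's correlation over rows was 0.343 with length and -0.227 with GC content. These are descriptions across genes, which share the same 12 libraries and are not independent replicates.

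Length and GC content are those of the longest annotated transcript of each gene, which need not be the form expressed here. The libraries were sequenced on NovaSeq and HiSeq instruments, and which library ran on which is not given in the sources used here. How far RNA integrity, library preparation or sequencing platform moved with the groups was not tested. Mouse by mouse, the mean deviation of the longest class minus that of the shortest was -0.21, -0.060 and 0.14 (lowest, median, highest) in VEH-T10 and -0.085, 0.054 and 0.30 in Y397F-T10 mice. The groups overlapped, and the difference of 0.12 did not pass the exact permutation test (2-sided, 6 against 6, p = 0.149, adjusted 0.429). The same measure for GC content differed by -0.055 (exact permutation test, p = 0.126, adjusted 0.429).

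**Figure D3:**
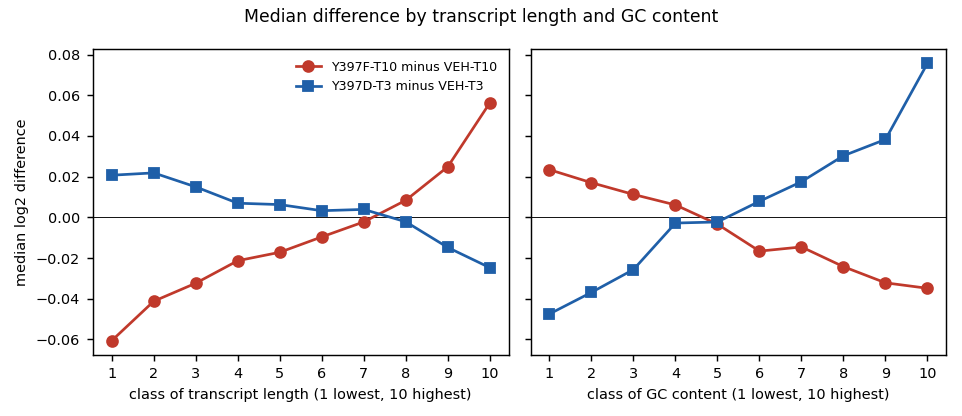
Median log2 difference (vertical axis) of tested rows in 10 equal classes of transcript length (left) and GC content (right), for Y397F-T10 minus VEH-T10 (red) and Y397D-T3 minus VEH-T3 (blue). The red line rises from -0.061 to 0.056 with length and the blue line goes from 0.021 to -0.025.

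Activity-regulated transcription factors and effector genes had medians on opposite sides of 0, both small. The 26 tested immediate-early transcription factors had a median of -0.052 (-0.083 without Y397F-T10 mouse 2, -0.018 without Y397F-T10 mouse 5), with 18 below 0, and none had an unadjusted p under 0.05. Fos was at 6.89, 7.08 and 9.16 FPKM in VEH-T10 and 5.29, 6.18 and 8.09 FPKM in Y397F-T10 mice, overlapping, a log2 difference of -0.20 ± 0.14. Egr1 was at 46.6, 50.7 and 53.1 and at 37.2, 50.9 and 67.6 FPKM, a difference of 0.00075 with the wider spread in the Y397F-T10 mice. Klf10 and Nfil3 were at -0.12 ± 0.076 and -0.15 ± 0.10. The 36 activity effector genes had a median of 0.025 with 21 above 0. Arc, a regulator of synaptic AMPA receptors, was at 36.4, 38.5 and 48.6 FPKM in VEH-T10 and 28.9, 33.4 and 36.8 FPKM in Y397F-T10 mice, so that only the lowest VEH-T10 mouse and the highest Y397F-T10 mouse overlapped, and the difference was -0.29 ± 0.15. Irs2, an adaptor of insulin receptors, was at 11.8 to 14.9 and 12.9 to 16.9 FPKM (0.20 ± 0.083), and Homer1, a postsynaptic scaffold, at 18.5 to 25.7 and 19.2 to 26.1 FPKM.

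Genes named in the study from its sequencing were examined as a set of 22, of which 17 were below 0 and 5 above, with a median of -0.11. This list was chosen on these samples and is not independent evidence of its direction. None had an unadjusted p under 0.05. Cabp7, a neuronal calcium-binding protein, came nearest, at 110, 119 and 141 FPKM in VEH-T10 and 91.3, 108 and 124 FPKM in Y397F-T10 mice (-0.17 ± 0.086). Hpca, the calcium sensor hippocalcin, was at 1288 to 1764 and 1158 to 1677 FPKM (-0.095 ± 0.11), Homer3 at 24.98 to 37.3 and 22.0 to 28.7 FPKM (-0.13 ± 0.10), and Smoc2 at 11.5 to 14.1 and 9.55 to 14.2 FPKM (-0.12 ± 0.086). The home cage group VEH-HC was given in vivo-jetPEI with no DNA and, in the study, was only handled before tissue was taken. Relative to VEH-HC, which both comparisons share, the set had a median log2 difference of 0.38 in VEH-T10 and 0.28 in Y397F-T10. These differences take in the rest of the task as well as the training. Hist2h2aa2 and 4933409K07Rik were at or near 0 in mice of both groups and Hist1h4j in 1 Y397F-T10 mouse, and histone genes have near-identical copies, so the values of the histone genes are uncertain: Hist1h4j was at 0.762 to 9.86 and 0 to 3.73 FPKM. Atxn7l1 varied from 1.86 to 10.1 FPKM in VEH-T10 and 1.51 to 9.95 FPKM in Y397F-T10 mice.

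Receptor and channel genes lay mostly above 0, with opposite values within the NMDA receptor family. Grin2a, the GluN2A subunit at chr16:9567898-9995560, was at 9.32, 9.87 and 10.9 FPKM in VEH-T10 and 10.8, 13.3 and 18.1 FPKM in Y397F-T10 mice (0.43 ± 0.18). Only the lowest Y397F-T10 mouse fell within the VEH-T10 range, and Y397F-T10 mice 5 and 6 were highest. Grin2b, the GluN2B subunit, was at 6.26, 7.79 and 14.6 and at 9.50, 10.96 and 12.8 FPKM (0.35 ± 0.20), with VEH-T10 mouse 1 above all others. Grin2c, the GluN2C subunit at chr11:115249169-115267243, lay the other way, at 12.1, 14.9 and 15.9 and at 10.3, 12.1 and 13.3 FPKM (-0.27 ± 0.068), and VEH-T10 mouse 1 was the 1 vehicle mouse inside the Y397F-T10 range. The 29 ionotropic glutamate receptor genes and auxiliary proteins had a median of 0.028, with 18 above 0.

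GABA-A receptor subunits had a median of 0.079 with 11 of 13 above 0, and 1 of 13 was higher at an unadjusted p under 0.05 (1.94% of all rows). This was Gabrb1, the beta 1 subunit, at 10.3 to 13.4 FPKM in VEH-T10 and 11.7 to 15.4 FPKM in Y397F-T10 mice (0.22 ± 0.090). Potassium channel genes had a median of 0.059 with 28 of 39 above 0. Kcnb2, a delayed rectifier, was at 1.17 to 1.51 and 1.36 to 1.90 FPKM (0.17 ± 0.076), and Kcnq3, an M-current subunit, at 11.5 to 13.5 and 11.95 to 16.7 FPKM (0.23 ± 0.12). Sodium, calcium and HCN channels had a median of 0.029, with Scn2a1 at 0.13 ± 0.081, and postsynaptic scaffolds a median of 0.020, with the adhesion protein Nlgn3 at 0.14 ± 0.065, Dlgap1 at 0.11 ± 0.053 and its paralog Dlgap3 at -0.11 ± 0.061. Synaptic vesicle release genes had a median of -0.018 and none had an unadjusted p under 0.05, Slc17a7, the vesicular glutamate transporter VGLUT1, being at 532 to 702 and 499 to 660 FPKM. With the length and GC trend removed, the medians of the potassium channels and the GABA-A subunits were 0.046 and 0.050, that of the glutamate receptors 0.00087 and that of the sodium, calcium and HCN channels -0.0100, with 15 of 26 below 0. Without Y397F-T10 mouse 1 the latter was -0.029. Without the 4 libraries with high Ttr, the medians of the glutamate receptors and the vesicle release genes were 0.12 and 0.068. That of the sodium, calcium and HCN channels was then 0.11.

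Of the remaining function lists, clock genes had a median of 0.0027, with the core factor Clock at 0.11 ± 0.052, and heat shock proteins and chaperones one of 0.0044, with Hspa4 at 0.086 ± 0.043. Glucocorticoid target genes had a median of 0.058 with 14 of 18 above 0, and Klf9, a factor that corticosterone raises, was at 44.0 to 51.6 FPKM in VEH-T10 and 45.4 to 56.7 FPKM in Y397F-T10 mice (0.15 ± 0.063). Fkbp5, a cochaperone of the glucocorticoid receptor, was at 0.10 ± 0.055. The median of the glucocorticoid list was 0.00016 without the 4 libraries with high Ttr. Replication-dependent histone genes had a median of 0.079 with 12 of 17 above 0, led by Hist1h4h at 0.45 ± 0.25, and none had an unadjusted p under 0.05.

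Genes that respond to interferon and sense foreign DNA are of interest where 1 group received a plasmid and the other did not. Of 47 interferon response genes, 35 were above 0, with a median of 0.079, and none had an unadjusted p under 0.05. The mean log2 deviation of the list was -1.44 in the lowest VEH-T10 mouse and -1.18 in the lowest Y397F-T10 mouse, mouse 1 in each, and reached 0.64 and 0.96 in the highest. The spread within each group was many times the difference between them. Ifit1 was at 0.39, 5.59 and 8.06 FPKM in VEH-T10 and 1.49, 6.26 and 22.0 FPKM in Y397F-T10 mice (0.54 ± 0.66). The list median turned to -0.17 without VEH-T10 mouse 1, was 0.30 without Y397F-T10 mouse 1, 0.067 without both and -0.48 without the 4 libraries with high Ttr. The 11 DNA sensing genes had a median of -0.028, with the kinase Tbk1 at 13.9 to 15.6 and 14.8 to 17.0 FPKM (0.095 ± 0.046).

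Cell type markers differed more among mice than between groups. In bulk tissue, fewer cells of a type and less RNA per cell cannot be told apart. All 12 microglial markers were below 0, with a median of -0.20, and all 11 tested markers of activated microglia, with a median of -0.24, and in neither list did any have an unadjusted p under 0.05. C1qa, a complement component that microglia make, was at 49.4, 156 and 269 FPKM in VEH-T10 and 49.1, 132 and 174 FPKM in Y397F-T10 mice, and Aif1 at 6.15 to 34.0 and 5.25 to 23.8 FPKM. Summed microglial markers spanned 354 to 1616 FPKM in VEH-T10 and 365 to 1103 FPKM in Y397F-T10 mice. The microglial median was -0.48 without VEH-T10 mouse 1 and 0.0018 without Y397F-T10 mouse 1. Without both it was -0.25, and without the 4 libraries with high Ttr the medians of microglia and activated microglia were -0.62 and -0.69. Astrocyte, reactive astrocyte, oligodendrocyte and oligodendrocyte precursor markers had medians of -0.080, -0.095, -0.082 and -0.079, and endothelial and mural markers -0.062 (-0.11 without VEH-T10 mouse 3), with the tight junction gene Cldn5 at 32.0 to 64.0 and 31.3 to 42.4 FPKM (-0.27 ± 0.12).

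The glial medians also turned on mouse 1 of each group. The reactive astrocyte median was -0.39 without VEH-T10 mouse 1, 0.21 without Y397F-T10 mouse 1 and -0.59 without the 4 libraries with high Ttr. The astrocyte median was -0.14 and 0.0084, and the oligodendrocyte median -0.21 and 0.055, without mouse 1 of VEH-T10 and of Y397F-T10 in turn. That of oligodendrocyte precursors was -0.15 without VEH-T10 mouse 1 and -0.0039 without VEH-T10 mouse 5.

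**Figure D4:**
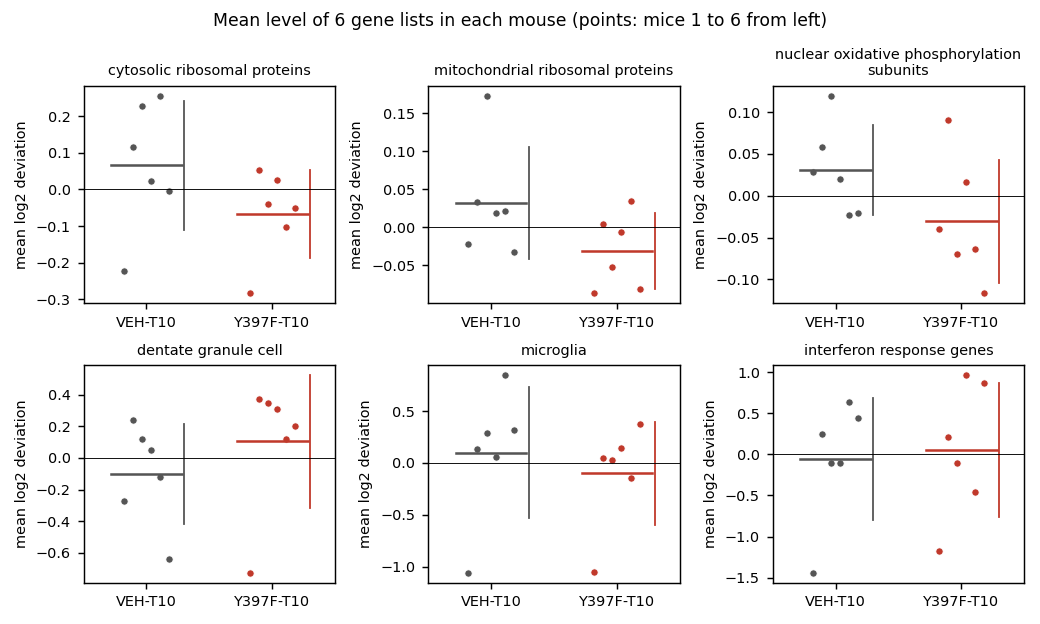
Mean log2 deviation from the gene's mean over the 12 mice (vertical axes) of 6 gene lists in each VEH-T10 mouse (grey) and Y397F-T10 mouse (red), with group means and 1 SD. Mouse 1 of each group is lowest for cytosolic ribosomal proteins, at -0.22 and -0.28, and for microglia and interferon response genes, and the groups overlap in every list.

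Dentate granule cell markers lay on the other side, with 8 of 8 above 0 and a median of 0.17. At an unadjusted p under 0.05, 1 of 8 was higher (1.94% of all rows). Prox1, the transcription factor that defines these cells, was at 6.36, 10.7 and 13.2 FPKM in VEH-T10 and 7.70, 14.0 and 16.1 FPKM in Y397F-T10 mice (0.32 ± 0.19), Dsp, desmoplakin, differed by 0.40 ± 0.25 and Pdzd2 by 0.32 ± 0.14. The list mean was lowest in Y397F-T10 mouse 1, at -0.73, and in VEH-T10 mouse 6, at -0.64, and the median was 0.41 without the former and 0.066 without the latter. Markers of CA1 and of CA2 and CA3 pyramidal neurons had medians of -0.015 and -0.056, and those of interneurons 0.044, with Reln, which marks a class of interneurons, at 0.18 ± 0.087. Choroid plexus markers had a median of 0.36, with 11 of 11 above 0. It was -0.35 without Y397F-T10 mouse 2, 0.0057 without the 4 libraries with high Ttr and 1.16 without mouse 1 of both groups. Their summed level ran from 11.5 to 4545 FPKM in VEH-T10 and 30.6 to 10580 FPKM in Y397F-T10 mice. Of these markers Slc4a5 was at 0 in at least 1 mouse. Ependymal, thalamic, deep cortical, meningeal and blood markers had medians of 0.048, 0.054, 0.042, 0.053 and 0.0030, each of which turned negative without 1 mouse. Without Y397F-T10 mouse 2 the ependymal, thalamic and meningeal medians were -0.12, -0.010 and -0.11, and without the 4 libraries with high Ttr the ependymal and meningeal medians were -0.32 and -0.29. The deep cortical median was -0.012 without Y397F-T10 mouse 1, and the blood median -0.067 without VEH-T10 mouse 4 and 0.33 without VEH-T10 mouse 3. The CA1 median was 0.044 without Y397F-T10 mouse 4, and without Y397F-T10 mouse 1 those of CA2 and CA3 neurons and of interneurons were 0.028 and -0.042. Without the 4 libraries with high Ttr the CA1 and interneuron medians were 0.12 and 0.21.

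A second plasmid comparison in the series, Y397D-T3 against VEH-T3, uses 12 other mice. Its plasmid carries aspartic acid at position 397, labelled phospho-mimetic, and its training lasted 3 min. The mutation and the length of training therefore cannot be told apart in the difference between the comparisons. That difference, Y397F-T10 minus VEH-T10 less Y397D-T3 minus VEH-T3, was called at an adjusted p under 0.05 for 4 rows (0.0303% of tested rows), of which 3 are given here, Lrrc58, Rlim and Tmem263, each with an adjusted p of 0.0228 (limma, Benjamini-Hochberg over 13184 rows). In these 3 the values were positive after the Y397F plasmid and negative after the Y397D plasmid. The comparison of Y397D-T3 with VEH-T3 alone called 1 row (0.00758%), Tmem263, and at an unadjusted p under 0.05 it gave 5.15% of rows higher and 2.72% lower, 7.87% in all.

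Rlim had a difference between comparisons of 0.38 ± 0.068. It was at 5.91 to 7.11 FPKM in VEH-T10, 7.58 to 8.10 FPKM in Y397F-T10, 7.23 to 8.91 FPKM in VEH-T3 and 6.60 to 7.60 FPKM in Y397D-T3 mice. Lrrc58, at chr16:37868389-37888858, ran from 8.75 to 10.99, 10.95 to 11.99, 11.4 to 13.0 and 9.96 to 11.9 FPKM in the same order of groups (0.37 ± 0.066). Tmem263, a membrane protein gene at chr10:85102627-85120618, was at 6.57 to 8.09, 7.55 to 8.50, 7.70 to 8.62 and 6.45 to 7.13 FPKM (0.32 ± 0.058), so that the Y397D-T3 mice lay apart from the VEH-T3 mice while the Y397F-T10 and VEH-T10 mice overlapped. In each of these genes VEH-T10 and Y397D-T3 had the lower means of these 4 groups. VEH-HC mice averaged 7.80 FPKM for Rlim, beside 7.83 FPKM in Y397F-T10 mice. The count of calls was 0 when libraries were centred on their median, when the length and GC trend was removed, without the 4 libraries with high Ttr, and without VEH-T10 mouse 5 or Y397F-T10 mouse 3, 4 or 6. Each of these 3 genes was above 0 in the Y397F comparison with centring, with the trend removed and without the high-Ttr libraries.

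**Figure D5:**
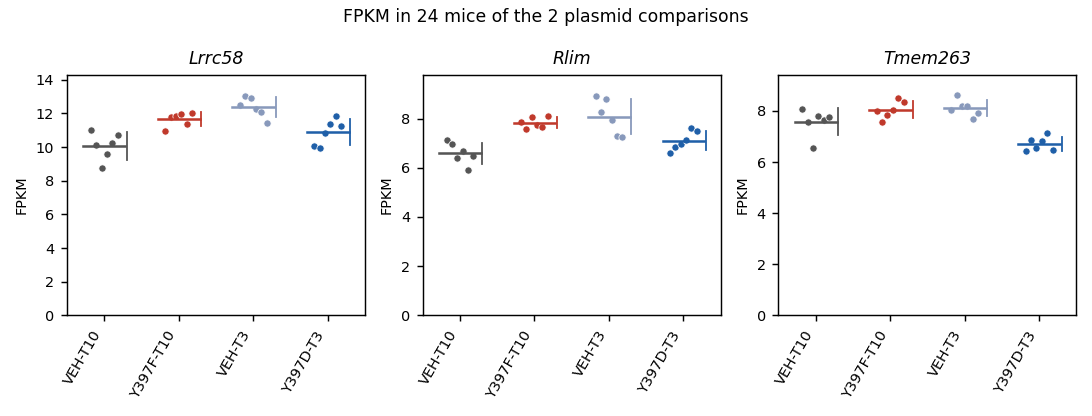
FPKM (vertical axes, each from 0) of 3 genes called for the difference between the plasmid comparisons, in 6 mice each of VEH-T10 (grey), Y397F-T10 (red), VEH-T3 (light blue) and Y397D-T3 (blue), with means and 1 SD. VEH-T10 and Y397D-T3 have the lower means in each gene, and only for Tmem263 do the Y397D-T3 mice, at 6.45 to 7.13 FPKM, lie below every VEH-T3 mouse.

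Some gene lists are given here with their values in both comparisons, some with opposite signs and some with the same sign. Cytosolic ribosomal proteins had medians of -0.12 after Y397F and -0.015 after Y397D, mitochondrial ribosomal proteins -0.066 and 0.044, and oxidative phosphorylation genes -0.057 and 0.020. Immediate-early transcription factors were at -0.052 and 0.060 and the genes named in the study at -0.11 and 0.14, a set chosen on these samples. Potassium channels were at 0.059 in both, and synaptic vesicle release genes at -0.018 and 0.10. On the same side of 0 in both were activity effector genes (0.025 and 0.036), BAF subunits (0.023 and 0.018), GABA-A subunits (0.079 and 0.053) and glutamate receptors (0.028 and 0.087). So were postsynaptic scaffolds (0.020 and 0.069), sodium, calcium and HCN channels (0.029 and 0.098), glucocorticoid targets (0.058 and 0.023) and replication-dependent histone genes (0.079 and 0.15). For the difference itself, counts are at an unadjusted p under 0.05, which 9.08% of all rows passed (3.43% higher and 5.65% lower). Lower were 4 of 26 immediate-early transcription factors, 4 of 26 sodium, calcium and HCN channels and 9 of 76 mitochondrial ribosomal proteins. Of cytosolic ribosomal proteins 4 of 79 were lower, near the share of all rows. Higher were 5 of 36 heat shock genes, 4 of 28 acetyltransferases, 4 of 34 splicing factors and 4 of 33 Mediator subunits, with 1 Mediator subunit lower. Of 30 BAF subunits, 2 were higher and 3 lower. Among all rows, 52.6% lay below 0. Median differences by length class ran in opposite orders, from 0.021 in the shortest to -0.025 in the longest class after Y397D. Over rows, Spearman's correlation between both comparisons was -0.192, and -0.109 with the length and GC trend removed, with no library in common. Choroid plexus markers had medians of 0.36 after Y397F and -1.38 after Y397D, ependymal markers 0.048 and -0.33 and meningeal markers 0.053 and -0.42. Markers of activated microglia (-0.24 and -0.27) and oligodendrocytes (-0.082 and -0.20) had the same sign. The part of cell composition in the correlation was not tested.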

How the data were processed

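RNA was measured in dorsal hippocampus of 30 mice, 1 library per mouse, with 6 mice per group and groups taken from the labels. The authors aligned paired reads of 150 bases to mm10 with TopHat2 2.1.1 and computed FPKM with Cufflinks 2.2.1, and the deposited FPKM were used as they stand. The table had 24883 rows and 30 columns, with 0 columns left out, and 280 symbols occupied 817 rows. A gene list takes the row with the highest mean. Absolute depth is unknown. Relative depth was estimated from 2642 low rows (median residual 0.0008 log2), and precision is given by the spread among mice.

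Rows with a mean of at least 1 FPKM entered limma 3.58.1 (R 4.3.3) as log2(FPKM + 1), all 30 libraries in 1 fit with 5 group coefficients, a variance trend and Benjamini-Hochberg adjustment. Adding 1 draws differences of low rows toward 0. Unadjusted p values, SEs and intervals come from this fit unless an exact test is named. The fit was tested on simulated data. The Bayesian Cyber-T analysis of variance that the authors used was not run here. Transcript length and GC content came from GENCODE M21 (GRCm38) by symbol, for 99.3% of rows, and are those of the longest annotated transcript of a gene. Lists were described by counts and medians without a test. The comparison, the gene lists and the alternatives were chosen with earlier results of these data known. Named genes are Ss18l1, Ss18, Crebbp, Ep300, Smarca4 and genes named in the study, the 8 higher and 8 lower non-overlapping rows with the largest differences, the 10 smallest p values, up to 3 members per list with the smallest p, and rows called for the difference between comparisons. Some genes that the rule selects are not reported here. Ttr lies outside this rule and was chosen after its values were seen. Alternatives were a pseudocount of 0.1, no filter, a minimum of 5 FPKM, median centring, quantile normalization, removal of a spline trend in length and GC content, only the 12 libraries, the replicate number as a block, summed rows, array weights and each of 12 mice left out. After seeing the data, 2 were added: mouse 1 of both groups left out, and 4 libraries with high Ttr left out, and the difference between comparisons was run under the other alternatives too. Python 3.11.15 with scipy 1.17.1 and matplotlib 3.10.9 did the rest. The limma p values set group differences against the spread among mice within groups, taken over all 30 libraries.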

Additional observations from a re-analysis of the deposited data

Results flagged for a closer look

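In 262 groups of 6 mice, 27 had 1 mouse far from the others by Dixon's criterion, of which 26 are given here, where chance gives about 1 in 20. Among genes, VEH-T10 mouse 1 stood apart for Klhl15 at 1.07 FPKM, Grin2c at 12.1 FPKM, Grin2b at 14.6 FPKM, Irs2 at 14.9 FPKM and Reln at 5.50 FPKM. VEH-T10 mouse 3 did so for Tmem263 at 6.57 FPKM, Hnrnpd at 17.6 FPKM and Psma6 at 113.1 FPKM, and VEH-T10 mouse 5 for Rps27 at 34.8 FPKM and Fos at 9.16 FPKM. Y397F-T10 mouse 1 stood apart for Klf9 at 45.5 FPKM, Prox1 at 7.70 FPKM and Dsp at 2.33 FPKM, mouse 2 for Dlgap3 at 85.1 FPKM and mouse 4 for Cox19 at 23.0 FPKM.

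Among gene lists, given as the mean log2 deviation, Y397F-T10 mouse 1 stood apart for BAF subunits at -0.073, vesicle release at 0.21, dentate granule cell markers at -0.73, oligodendrocyte markers at -0.72, microglial markers at -1.05 and deep cortical markers at 0.38. VEH-T10 mouse 1 stood apart for interferon response genes at -1.44 and interneuron markers at 0.19, mouse 2 for heat shock proteins at -0.096, and mouse 3 for mitochondrial ribosomal proteins at 0.17 and proteasome subunits at 0.18.

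The plasmid comparisons differed from each other by limma's test of the difference in Lrrc58 at 0.37, Rlim at 0.38 and Tmem263 at 0.32 on the log2 scale. The part of the mutation and that of the training length cannot be told apart.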

How the results depend on the processing

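No row passed the adjusted threshold between Y397F-T10 and VEH-T10 under any alternative. At an unadjusted p under 0.05 the counts of 256 higher and 242 lower rows became 501 and 448 with array weights, 175 and 301 with libraries centred on their median, and 250 and 263 with the replicate number as a block. Leaving out 1 mouse gave 161 (without VEH-T10 mouse 6) to 396 (without VEH-T10 mouse 1) higher and 175 to 443 (without VEH-T10 mouse 1) lower rows. The higher count was 415 without mouse 1 of both groups, and without the 4 libraries with high Ttr the counts were 451 and 671; both alternatives were chosen after seeing the data. The 4 rows called for the difference between comparisons became 6 without mouse 1 of both groups, 0 with centring, with the length and GC trend removed, with the replicate block and without the libraries with high Ttr, 1 with quantile normalization, 55 with array weights, and 0 (without VEH-T10 mouse 5 or Y397F-T10 mouse 3, 4 or 6) to 5 with 1 mouse left out. Its counts of 452 higher and 745 lower rows at an unadjusted p under 0.05 became 271 and 461 with the trend removed and 755 and 1264 with array weights. The cause was not tested. Ss18, at 0.018, ranged from -0.037 to 0.12 with 1 mouse left out and was -0.11 without the libraries with high Ttr, where Ifit1 was -0.38. Of 1008 list medians recomputed, 95 had the other sign and 1 moved by more than the spread between mice, and 18 of 42 lists never changed sign. The replicate numbers did not pair the mice: same-numbered mice correlated at -0.38 to 0.44 in their deviations, 3 of 6 above 0.1, and 2 of 6 correlated best with their own number. FPKM carry no absolute depth, so no counting error is given.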
